A study of Mus musculus with 8 samples.

Results

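The 9 genes described here code for components of insulin and insulin-like growth factor (IGF) signalling: Insr, Igf1r, Igf2r, Irs1, Irs2, Pik3r1, Akt1, Akt2 and Foxo1. They were chosen by name and matched to the gene symbols of the count table, which held 55536 genes. All 9 were found, and 8 had enough counts to be tested (Igf1r did not). They were measured by sequencing of poly(A) RNA from alphaTC6 cells, a mouse cell line of the glucagon-producing pancreatic alpha cell, labelled wild type (the protocol text also speaks of islets). One group was 4 libraries from cells transfected with a scramble siRNA, the control. The other was 4 libraries from cells transfected with a pool of siRNAs against Klf4, a zinc finger transcription factor. Both groups had 48 h with the lipid transfection reagent, and untransfected cells were not analysed here. Batch 1 held scramble replicates 1 and 2 and Klf4 siRNA replicates 1, 2 and 4, and batch 2 held scramble replicates 3 and 4 and Klf4 siRNA replicate 3. The design text calls the libraries biological replicates, and all come from 1 cell line, so the spread between them is that of cultures and not of animals.

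Insulin and the IGFs bind receptor tyrosine kinases on the cell surface, the insulin receptor and the IGF1 receptor. The activated receptor phosphorylates adaptor proteins of the IRS family, which recruit phosphoinositide 3-kinase (PI3K), and its lipid product brings the kinase AKT to the membrane, where it is activated. AKT in turn phosphorylates targets such as the FOXO transcription factors, which then leave the nucleus. In the islet, insulin from beta cells acts on alpha cells through this route and restrains glucagon release.

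Klf4, the targeted gene, had 39.2, 35.1, 46.3 and 46.8 CPM in the controls (scramble replicates 1 to 4), where CPM are counts scaled to a common library total. After knockdown (Klf4 siRNA replicates 1 to 4) it had 12.5, 11.5, 19.8 and 18.8 CPM, or 39.8% of the control level. The edgeR adjusted p was 0.0083, with 0.104 in batch 1 alone and 0.052 when scramble replicate 1 was left out. All 4 knockdown libraries were below all 4 controls. Library totals ran from 45954151 to 64185987 counts. Of the alpha cell markers, Gcg, Irx1, Irx2, Ttr and Pou3f4 were expressed, whereas Gc had 10 counts in all. Gcg, the glucagon gene, ran from 1244 to 8913 CPM in the controls and from 1065 to 7640 CPM after knockdown. Of the 7 beta cell markers, Ins1, Ins2 and Pdx1 were at 0 counts in every library, and the sum was 121.3 to 152.3 CPM in the controls and 107.2 to 139.2 CPM after knockdown, of which Nkx6-1 gave 103.2 CPM or more in every library. Markers of delta cells (at most 0.057 CPM in sum), pancreatic polypeptide cells (0.18), acinar cells (7.31), duct (4.63), endothelial cells (0.44) and macrophages (2.76) were low in both groups. Fibroblast markers summed to 18.9 to 21.4 CPM in the controls and 19.5 to 27.2 CPM after knockdown, and 3 of the 5 had enough counts to be tested.

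The first question was which components the cells expressed at all. Among ligands, neither insulin gene (Ins1 or Ins2) had a count among the 438232869, and Igf2 had 2 counts in all. For each insulin gene the one-sided 95% counting limit was 0.00685 CPM over all libraries together. Igf1, the gene of insulin-like growth factor 1, was the only ligand with enough counts to be tested. Counting limits given here cover counting error only, since reads without molecular identifiers can include PCR copies.

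The receptors differed widely. Insr (ENSMUSG00000005534, chromosome 8, 3122061 to 3279617, minus strand, of GRCm38), the insulin receptor gene, had between 2721 and 3785 raw counts per library. Igf1r (ENSMUSG00000005533, chromosome 7, 67952827 to 68233668, plus strand), which codes for the IGF1 receptor, had 2, 1, 1 and 0 counts in the controls and 0, 0, 1 and 0 after knockdown. No library had more than 2 counts of it, and the total was 5 (95% exact Poisson interval 1.62 to 11.7), against 26157 for Insr. The ratio of Insr to Igf1r counts was 5231, with a counting interval from 2242 to 16112. Igf1r is the longer of the pair in annotated exons, at 16.8 kb against 13.7 kb. Insrr, the related orphan receptor, was present at 0.81 ± 0.30 CPM per kilobase of exon (SD, n = 4) in scramble libraries.

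The surroundings of Igf1r were examined after its counts had been seen. Annotated genes between the nearest neighbours with a mean of at least 1 CPM, Ttc23 on one side and Arrdc4 on the other, cover a stretch of 974.1 kb. It holds 20 annotated genes, 3 of them protein coding: Igf1r, Pgpep1l and Fam169b. Together the 20 had 23 counts over the 8 libraries, and Pgpep1l and Fam169b had 0. Synm, which lies within the span of Ttc23, had 46. Ttc23 had 113 to 179 counts per library and Arrdc4 1253 to 2089. Counts this low are common: 6796 of 22028 protein-coding genes (30.9%) had no more than 5 in all. Whether the stretch is present in the genome of these cells was not tested.

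**Figure D1:**
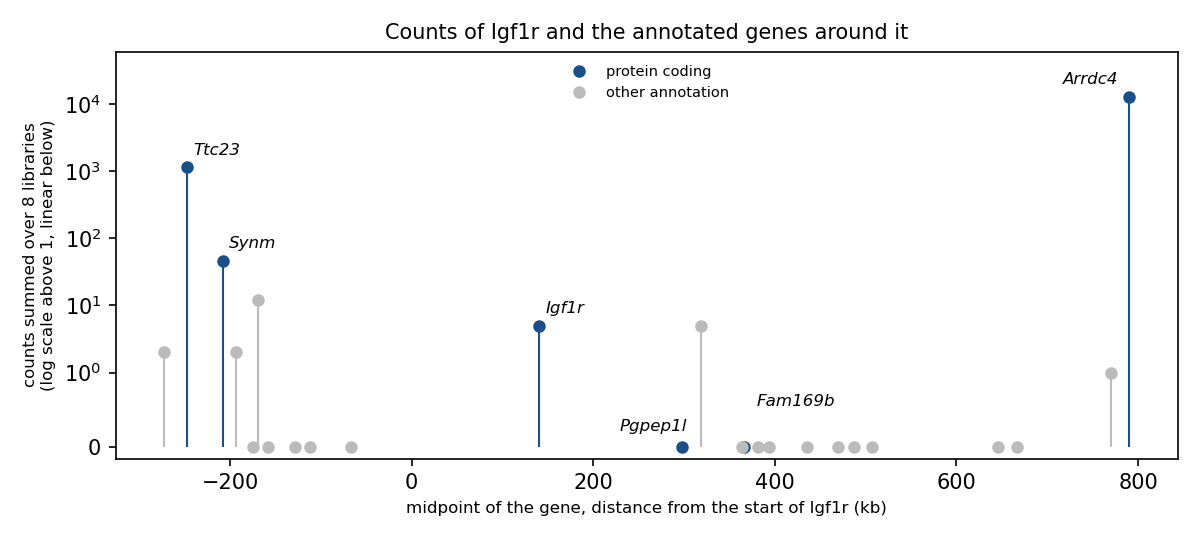
Counts summed over the 8 libraries (vertical axis, logarithmic above 1 and linear below) of Igf1r and the annotated genes around it, by distance of each gene's midpoint from the start of Igf1r in kilobases. Between Ttc23 and Arrdc4 no gene exceeded 12 counts in all, and Igf1r had 5. Synm, with 46 counts, lies inside the span of Ttc23.

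Levels of different genes were compared per length, as CPM per kilobase of merged exons, in the scramble libraries. Akt1 stood highest with 107.2 ± 3.32 (SD, n = 4 here and below), and Irs2 followed with 105.2 ± 2.78, within the range of Akt1. Pik3r1 had 40.5 ± 5.19 and Akt2 39.1 ± 2.95, whose ranges also overlapped. Igf2r came next with 26.7 ± 1.85, then Irs1 with 7.10 ± 1.10, Foxo1 with 5.70 ± 0.29 and Insr with 4.17 ± 0.12, and these 4 did not overlap their neighbours. The receptor gene Insr was therefore the lowest of the 8 tested members per length. With the longest annotated transcript as the length, Akt1 was at 163.3 and no longer overlapped Irs2, Akt2 (61.3) stood above Pik3r1 (57.4) within overlapping ranges, and Insr (6.13) stood above Foxo1 (5.70), also within overlapping ranges.

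Families differed in how their RNA per length was divided. Irs2, one of the adaptor genes, made up 93.7 ± 0.90% of the Irs1 and Irs2 sum in scramble libraries, while Irs3 had 1 count and Irs4 none in all 8 libraries. Among regulatory subunits of PI3K, Pik3r2 (49.0 ± 2.46%) and Pik3r1 (43.5 ± 3.10%) were the main genes, with 7.46 ± 0.75% for Pik3r3. The FOXO factors were more even, with 37.8 ± 1.59% for Foxo3, 28.6 ± 3.47% for Foxo1, 19.8 ± 3.32% for Foxo6 and 13.8 ± 1.91% for Foxo4.

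**Figure D2:**
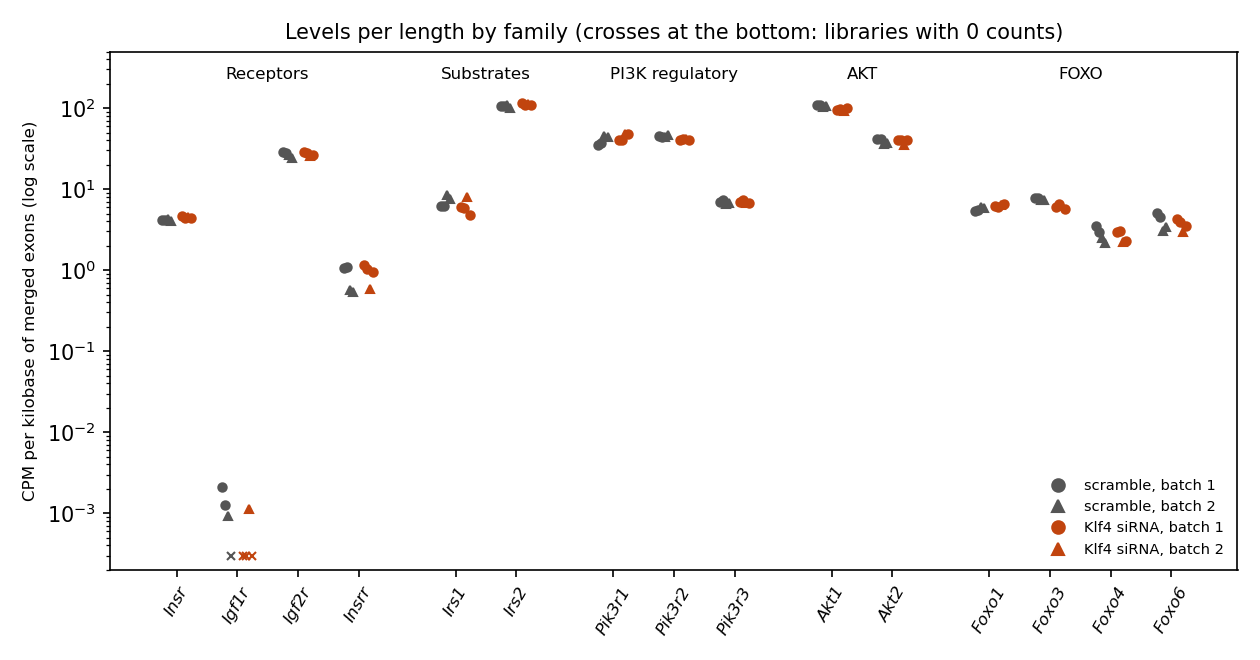
CPM per kilobase of merged exons (logarithmic axis) for receptors, adaptors, PI3K regulatory subunits, AKT kinases and FOXO factors, 1 point a library, by treatment (colour) and batch (shape). Igf1r lies more than 3 decades below Insr, at 0 counts in 4 of the 8 libraries (crosses), and Akt1 and Irs2 are at the top.

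Next, Klf4 siRNA was compared with scramble, with batch as a term. Of the 8 tested members, 3 passed an adjusted p of 0.05, against 11.7% of all 16333 genes tested. Insr and Foxo1 rose (4.88% of all tested genes passed and were higher) and Akt1 fell (6.81% passed and were lower). All 3 changes were small, at 108.6%, 112.0% and 88.8% of the control level. The 4 knockdown libraries did not overlap the 4 controls for these 3 and for Irs2, which did not pass, against 10.5% of all tested genes and 56.5% of the genes that passed. The median log2 change (of Klf4 siRNA over scramble) was 0.036 over the 8 members and 4.33e-05 over all tested genes. Since the cultures were measured in bulk, a change in a subset of cells and a change in RNA per cell cannot be told apart. Leaving out the batch term ended all 3 calls (adjusted p = 0.111 for Insr, 0.155 for Foxo1 and 0.053 for Akt1).

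**Figure D3:**
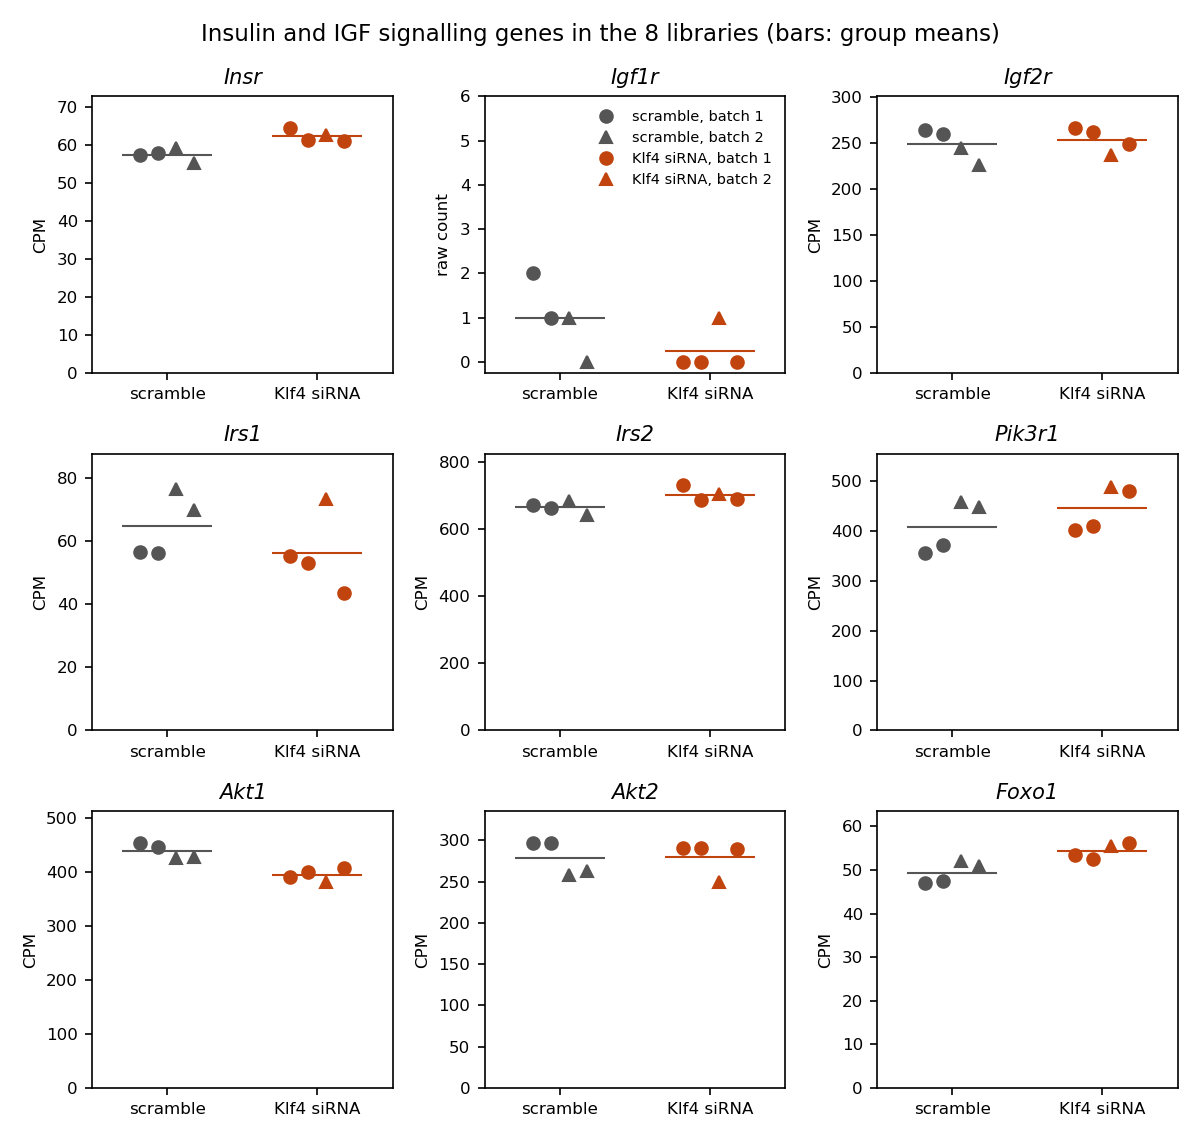
CPM (raw counts for Igf1r) of the 9 genes in each library, with bars at the group means, by treatment (colour) and batch (shape). Klf4 siRNA libraries lie above every control for Insr, Irs2 and Foxo1 and below every control for Akt1, while Igf2r, Irs1, Akt2 and Pik3r1 overlap.

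At the receptor level, Insr had 57.4, 57.8, 59.1 and 55.2 CPM in the controls and 64.4, 61.2, 62.6 and 61.1 CPM after knockdown, each in the order of replicates 1 to 4. The lowest knockdown library was above the highest control, and the rise was of like size in both batches (0.11 within batch 1 and 0.13 within batch 2 on the log2 scale). The fitted log2 change was 0.12 (standard error, SE, 0.03; edgeR adjusted p = 0.020). This call was the least stable of the 3. It was lost on omission of scramble replicate 1 (adjusted p = 0.088) or 2 (0.076), or of Klf4 siRNA replicate 1 (0.058) or 3 (0.132). It was also lost in batch 1 alone (0.134) and with library size alone as the scaling (0.080).

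Igf2r (ENSMUSG00000023830, chromosome 17, 12682406 to 12769664) codes for a receptor with no kinase that takes up IGF2 and carries lysosomal enzymes tagged with mannose 6-phosphate. It had 263.9, 259.7, 244.3 and 226.0 CPM in the controls and 265.9, 261.6, 236.7 and 248.8 CPM after knockdown. The groups overlapped, and the log2 change of -0.0073 (95% interval -0.072 to 0.057, edgeR adjusted p = 0.928) took the other sign on omission of scramble replicate 1 or 3 or of Klf4 siRNA replicate 4. The antisense gene Airn lies across Igf2r on the opposite strand without sharing exons and had 386 to 588 counts per library, against 12222 to 15655 for Igf2r. M6pr, the other mannose 6-phosphate receptor, fell from 323.0 ± 2.33 to 303.7 ± 6.34 CPM (SD, n = 4 each; edgeR adjusted p = 0.039), a call that 11 of 17 alternatives ended, among them the omission of any library but scramble replicate 4 and Klf4 siRNA replicate 4 (adjusted p up to 0.196).

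Both adaptor genes missed the threshold. Irs2 (ENSMUSG00000038894, chromosome 8, 10984681 to 11008458), the abundant one, had 670.9, 662.8, 684.2 and 642.3 CPM in the controls and 731.4, 686.2, 704.8 and 690.4 CPM after knockdown. Every knockdown library was above every control, with 686.2 and 684.2 CPM as the nearest pair, and the log2 change was 0.080 (95% interval 0.017 to 0.14, edgeR adjusted p = 0.0998). On omission of Klf4 siRNA replicate 4 the call was reached, at 0.049. Irs1 (ENSMUSG00000055980, chromosome 1, 82233101 to 82291416) had 56.6, 56.4, 76.7 and 69.9 CPM in the controls and 55.3, 53.0, 73.4 and 43.6 CPM after knockdown. The 3 libraries of batch 2 were above the 5 of batch 1, Klf4 siRNA replicate 4 was lowest, and the log2 change of -0.099 had a wide interval, from -0.31 to 0.11 (edgeR adjusted p = 0.578). The change was -0.035 on omission of Klf4 siRNA replicate 4 and -0.16 on omission of Klf4 siRNA replicate 3. An opposite-strand annotation shares exon positions with each: 9530052E02Rik with Irs2, at no more than 42 counts, and Gm9747 with Irs1, at no more than 8.

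Pik3r1 (ENSMUSG00000041417, chromosome 13, 101680563 to 101768217) codes for the regulatory subunits of PI3K that dock on phosphorylated IRS proteins. It had 355.9, 371.7, 458.6 and 448.1 CPM in the controls and 402.0, 410.5, 488.9 and 481.1 CPM after knockdown. Within each batch every knockdown library was above every control, while over all 8 the groups overlapped. The log2 change was 0.20 (SE 0.06, 95% interval 0.053 to 0.34), and the adjusted p was 0.091 with edgeR. Klf4 siRNA replicate 4 stood well above the other knockdown libraries of batch 1. Without it the log2 change was 0.14 with an edgeR adjusted p of 0.0013, and with the replicate number as a block instead of batch it was 0.13 (0.022). The DESeq2 Wald test gave 0.049 and edgeR without a filter on low counts 1.01e-06. In both the log2 change was 0.20, as in the main fit, so the adjusted p moved and the size did not. In all, 4 of 17 alternatives passed the threshold.

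The other regulatory subunit, Pik3r2, fell. It had 189.0, 186.0, 186.4 and 197.3 CPM in the controls and 169.8, 173.5, 174.8 and 170.2 CPM after knockdown, with no overlap. The log2 change was -0.13 (SE 0.03, edgeR adjusted p = 0.0022), and it passed the threshold under all 17 alternatives. The catalytic subunits Pik3ca, Pik3cb and Pik3cd and the kinase gene Pdpk1 did not pass. Pik3r1 made up 43.5 ± 3.10% of the regulatory subunit RNA per length in scramble and 47.8 ± 2.62% in Klf4 siRNA libraries (SD, n = 4 each). The ranges overlapped over both batches together, while within each batch every knockdown library was above every control. In batch 1 the shares were 40.4 and 41.5% in scramble and 45.6, 45.4 and 50.1% in Klf4 siRNA libraries. In batch 2 they were 47.0 and 45.2% against 49.9%.

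Akt1 and Akt2 code for AKT kinases, and Akt1 passed the threshold while Akt2 did not. Akt1 (ENSMUSG00000001729, chromosome 12, 112653821 to 112674884) had 454.2, 447.6, 426.6 and 429.2 CPM in the controls and 391.0, 400.3, 381.2 and 408.3 CPM after knockdown. The highest knockdown library was below the lowest control, and the log2 change was -0.17 in batch 1 and -0.17 in batch 2. The fitted log2 change was -0.17 (SE 0.03, edgeR adjusted p = 0.00020), and 16 of 17 alternatives kept it past the threshold. Akt2 (ENSMUSG00000004056, chromosome 7, 27591552 to 27640826) had 296.7, 296.7, 258.0 and 262.8 CPM in the controls and 290.1, 290.6, 249.9 and 289.0 CPM after knockdown. Its knockdown libraries lay slightly below the controls of their own batch, with a log2 change of -0.043 (95% interval -0.097 to 0.011, edgeR adjusted p = 0.344). The difference between the Akt1 and Akt2 changes was not tested. As a description, the ratio of Akt1 to Akt2 CPM was 1.53, 1.51, 1.65 and 1.63 in scramble and 1.35, 1.38, 1.53 and 1.41 in Klf4 siRNA libraries.

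Foxo1 (ENSMUSG00000044167, chromosome 3, 52268336 to 52353221), the FOXO gene among the members, had 46.9, 47.4, 52.0 and 51.0 CPM in the controls and 53.4, 52.4, 55.5 and 56.2 CPM after knockdown. The groups did not overlap, though the lowest knockdown library (52.4) and the highest control (52.0) were close. The log2 change was 0.16 (SE 0.03, edgeR adjusted p = 0.0026), 0.19 within batch 1 and 0.11 within batch 2. Leaving out any library kept the call. The antisense gene Gm20402 shares exon positions with Foxo1 on the opposite strand and had at most 13 counts in a library.

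Foxo3, the family member with the most RNA per length in the controls, moved the other way. It had 59.0, 58.5, 55.2 and 56.0 CPM in the controls and 46.1, 49.2, 46.8 and 43.4 CPM after knockdown, and fell by 0.31 on the log2 scale (SE 0.04, edgeR adjusted p = 1.01e-05, under the threshold in all 17 alternatives). Foxo6 also fell, by 0.23, but with an adjusted p of 0.048 that 10 of 17 alternatives ended (0.346 on omission of scramble replicate 1, and above 0.05 for scramble replicates 2 and 4 and Klf4 siRNA replicates 2, 3 and 4), and Foxo4 did not pass (log2 change -0.17, adjusted p = 0.293). The Foxo6 change was -0.16 on omission of scramble replicate 1, -0.12 with no batch term and -0.11 with the replicate number as a block. The ratio of Foxo1 to Foxo3 CPM was 0.80, 0.81, 0.94 and 0.91 in scramble and 1.16, 1.07, 1.19 and 1.29 in Klf4 siRNA libraries. Foxo1 had fewer counts than Foxo3 in every control and more in every knockdown library. Foxo1 has the longer exons (8.66 kb against 7.57 kb), and per length its share of FOXO RNA was below that of Foxo3 in all 4 controls (28.6 ± 3.47% against 37.8 ± 1.59%). After knockdown the shares were close, at 33.6 ± 2.69% against 32.8 ± 1.60% (SD, n = 4 each), with Foxo1 the higher in 3 of 4 libraries. This pair was set side by side after the values were seen.

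**Figure D4:**
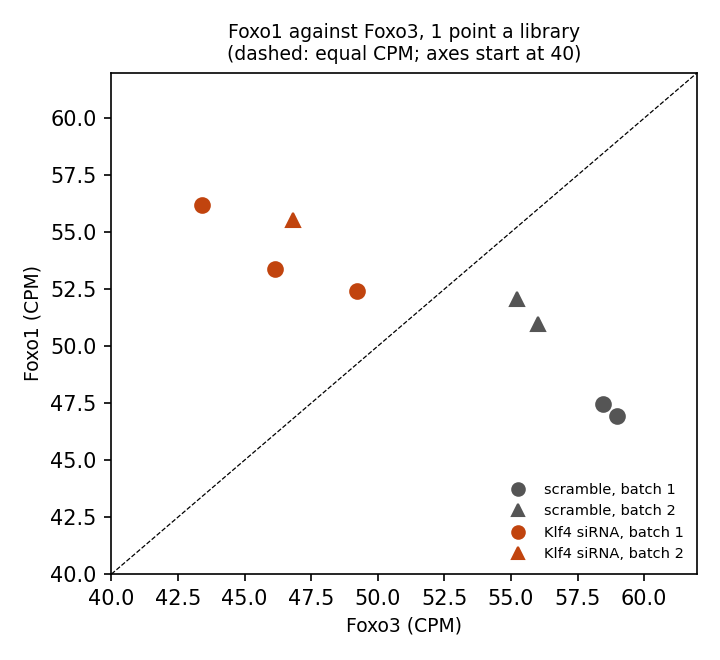
Foxo1 against Foxo3 in CPM (not scaled by length), 1 point a library, by treatment (colour) and batch (shape), with a dashed line at equal values and both axes starting at 40. The 4 scramble libraries lie below the line and the 4 Klf4 siRNA libraries above it.

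To show the DNA before the starts of the 2 members with the smallest adjusted p, Akt1 and Foxo1, and of Igf1r, which had almost no counts, the upstream windows are printed from RefSeq (GRCm38.p6). RefSeq windows were found for 8 of the 9 members, not for Insr. Each stretch is 240 bases long, 5′ to 3′ on the gene's strand, and lies just upstream of a RefSeq start. Capitals mark CACCC, the core of the sequence that KLF factors bind, or GTAAACA, a FOXO word, on either strand (as GGGTG or TGTTTAC where reversed). The windows are chr3:52268087-52268326 for Foxo1 (plus strand), chr12:112674895-112675134 and chr12:112674287-112674526 for the 2 starts of Akt1 (minus strand) and chr7:67952007-67952246 for Igf1r (plus strand). None overlaps an annotated exon of its gene, and the second Akt1 window lies inside the Akt1 gene.
Foxo1: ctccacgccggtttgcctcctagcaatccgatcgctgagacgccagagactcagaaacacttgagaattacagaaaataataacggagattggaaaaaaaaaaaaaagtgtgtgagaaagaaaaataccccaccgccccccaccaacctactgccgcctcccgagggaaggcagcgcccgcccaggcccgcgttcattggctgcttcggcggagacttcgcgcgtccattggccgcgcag
Akt1, start 1: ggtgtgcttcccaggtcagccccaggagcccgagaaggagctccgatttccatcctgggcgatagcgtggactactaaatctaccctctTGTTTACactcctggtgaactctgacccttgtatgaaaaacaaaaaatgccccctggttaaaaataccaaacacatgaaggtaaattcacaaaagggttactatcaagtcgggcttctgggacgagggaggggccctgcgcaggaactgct
Akt1, start 2: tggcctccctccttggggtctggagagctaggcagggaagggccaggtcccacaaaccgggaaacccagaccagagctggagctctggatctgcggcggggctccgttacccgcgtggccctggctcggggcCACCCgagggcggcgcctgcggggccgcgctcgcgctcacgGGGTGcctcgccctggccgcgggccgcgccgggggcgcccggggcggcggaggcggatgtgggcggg
Igf1r: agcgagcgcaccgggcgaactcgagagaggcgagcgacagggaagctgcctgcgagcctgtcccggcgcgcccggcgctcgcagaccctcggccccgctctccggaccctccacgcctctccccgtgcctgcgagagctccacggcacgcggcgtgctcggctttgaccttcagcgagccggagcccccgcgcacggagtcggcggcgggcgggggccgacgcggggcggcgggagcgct

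Foxo1 and Igf1r held neither word. Of the Akt1 windows, the first held GTAAACA once and the second CACCC at 2 places. Over the 13 windows of the 8 members, CACCC was in 8, CACACCC in 0 and GTAAACA in 1. Among all 32851 windows of this length, 50.6% held CACCC, 6.67% CACACCC and 3.06% GTAAACA. The Igf1r window was 77.5% G and C. A match of letters is a description only, as no binding was measured.

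The rest of the pathway was read from 9 lists with 78 genes, of which 67 were tested. After Klf4 siRNA 9 of these passed the threshold (13.4%, against the 11.7% of all genes), 2 higher and 7 lower (4.88% and 6.81% of all genes), with a median log2 change of -0.014. The genes that rose were Nras and Igf1, and those that fell were Foxo3, Sh2b1, Pik3r2, Gsk3a, Inppl1, M6pr and Foxo6. None of the 13 genes of the mTOR branch and none of the 3 tested IGF binding protein genes passed (edgeR, with 1 and 0 at an unadjusted p under 0.05, and 0 of either list with DESeq2 and limma-voom). Of the 10 listed AKT substrates, which leave out the member Foxo1 that rose, 3 passed and were lower, against 6.81% of all tested genes. They were Foxo3, Gsk3a and Foxo6, the last with the unstable call given above. Of the 14 genes that restrain the pathway 1 passed, lower.

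Among adaptors, Sh2b1, which binds the activated insulin receptor, had 114.7, 115.4, 117.2 and 118.3 CPM in the controls and 100.7, 96.9, 102.3 and 96.6 CPM after knockdown. It fell by 0.22 on the log2 scale (SE 0.03, edgeR adjusted p = 1.67e-05, past the threshold in all 17 alternatives). Grb10, an adaptor that inhibits the insulin receptor, had 700.2 ± 13.0 CPM in the controls and 737.3 ± 26.7 CPM after knockdown (SD, n = 4 each) and did not pass (log2 change 0.062, edgeR adjusted p = 0.193). Gab1, a docking protein gene, had 8 counts over all libraries, and was singled out after its counts were seen.

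Nras, a small GTPase gene of the RAS and ERK branch, rose from 55.0 ± 4.16 in the controls to 66.4 ± 4.16 CPM after knockdown (SD, n = 4 each), a log2 change of 0.23 (SE 0.03, edgeR adjusted p = 2.65e-05, or 0.058 with no batch term). The other 9 genes of that branch, with Hras among them, did not pass. Gsk3a, a kinase inhibited by AKT, fell from 183.5 ± 5.63 to 167.3 ± 3.86 CPM (log2 change -0.12, edgeR adjusted p = 0.0052, with 0.051 on omission of Klf4 siRNA replicate 3 and 0.067 with no batch term), whereas Gsk3b had -0.024 (0.656). Inppl1, a lipid phosphatase that acts on the product of PI3K, had a log2 change of -0.11 (edgeR adjusted p = 0.017), which 7 of 17 alternatives ended (0.147 on omission of scramble replicate 2, and above 0.05 for scramble replicate 1 and Klf4 siRNA replicates 1 and 3).

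Igf1 was the ligand that could be tested. It had 34.5, 36.7, 11.05 and 10.7 CPM in the controls and 40.8, 42.5, 10.5 and 43.2 CPM after knockdown. In batch 1 every knockdown library was above both controls, and in batch 2 the single knockdown library was just below both. The log2 change of 0.16 had an edgeR adjusted p of 0.044 that 8 of 17 alternatives ended, among them the omission of either scramble library of batch 1 (0.377 without replicate 1, 0.181 without replicate 2) or of Klf4 siRNA replicate 1, 2 or 4 (0.071 to 0.107). The change itself was 0.10 on omission of scramble replicate 1, and 0.25 (edgeR adjusted p = 0.0041) on omission of Klf4 siRNA replicate 3. With no batch term it was 0.57 (0.736). Its interaction of batch and treatment had a p of 0.0077 before and 0.999 after adjustment.

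Genes described as FOXO targets in other settings were read as a list of 17, with 15 tested. Of these 2 passed (13.3%, against 11.7%), 1 in each direction, with a median log2 change of -0.014. Trp53inp1, a stress-induced autophagy gene, rose from 151.6 ± 8.82 to 235.8 ± 19.5 CPM (SD, n = 4 each; log2 change 0.59, SE 0.03, edgeR adjusted p = 8.88e-11). Bcl2l11, which codes for the cell death protein BIM, fell from 78.6 ± 4.07 to 69.7 ± 3.12 CPM (log2 change -0.19, SE 0.04, edgeR adjusted p = 0.0024, or 0.096 with no batch term). The members Insr and Irs2 are themselves known FOXO targets and are not counted in the list.

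**Figure D5:**
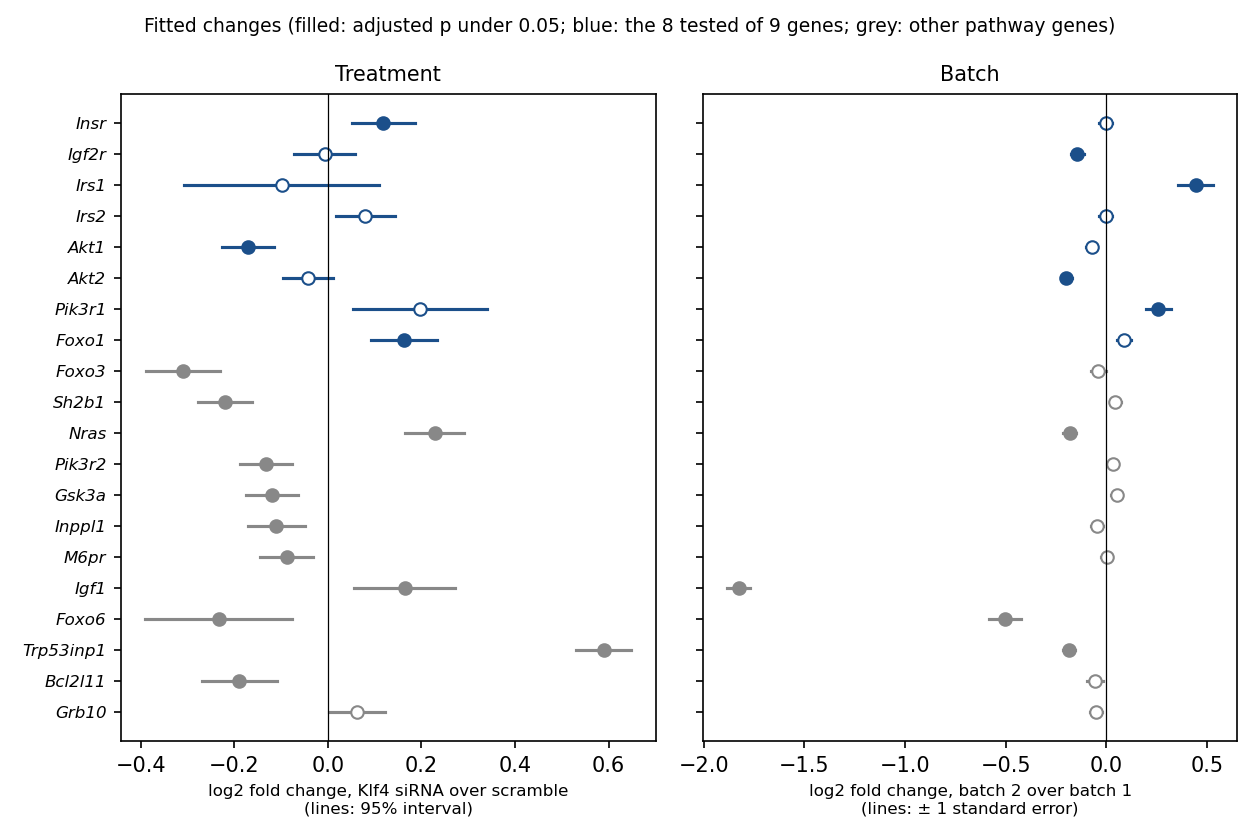
Fitted log2 changes of the 8 tested members (blue) and of 12 other named pathway genes (grey) for treatment (left, lines are 95% intervals) and batch (right, lines are 1 standard error each way), with filled points at an adjusted p under 0.05. Among members, Insr, Akt1 and Foxo1 are filled for treatment, and Igf2r, Irs1, Akt2 and Pik3r1 for batch.

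Batch 2 was then compared with batch 1 in the same fit. Of the 8 tested members 4 differed, 2 higher and 2 lower in batch 2, against 32.7% of all tested genes (16.8% higher, 15.9% lower). Of the 3 genes that changed after Klf4 siRNA, Akt1 and Foxo1 only just missed the batch threshold. Akt1 had a log2 batch difference of -0.073 (SE 0.03, edgeR adjusted p = 0.051) and passed in 6 of 14 alternatives, DESeq2 (0.027) and limma-voom (0.034) among them. Foxo1 had 0.090 (SE 0.03, edgeR adjusted p = 0.053) and passed in 2 of 14. The batches did not overlap for 3 of the 8 members, against 29.4% of all tested genes. What sets the batches apart (culture, library preparation or sequencing) cannot be told apart, as the labels give a number only.

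Irs1 had the largest batch difference of the members, from a mean of 53.0 CPM in batch 1 to 73.3 CPM in batch 2, a fitted ratio of 1.36 (log2 0.44, SE 0.09, edgeR adjusted p = 0.0093). The batches did not overlap, and the call was lost, at 0.069, on omission of Klf4 siRNA replicate 3. Pik3r1 was higher in batch 2 by a ratio of 1.20 (log2 0.26, edgeR adjusted p = 0.015), a call lost when scramble replicate 3 (adjusted p = 0.058) or scramble replicate 4 (0.094) was left out. Akt2 was lower, at 0.87 times batch 1 (log2 -0.20, edgeR adjusted p = 6.58e-06), and Igf2r at 0.91 times (log2 -0.14, 0.0016), with no overlap of batches for either. Both of these passed in all 14 alternatives that gave a batch value. Insr and Irs2 had log2 batch differences of -0.0030 and -0.0025 (edgeR adjusted p = 0.960 and 0.963).

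Among the other pathway genes 31 of 67 differed between batches, 8 higher and 23 lower in batch 2. That is 46.3% (11.9% higher, 34.3% lower), beside the 32.7% of all tested genes (16.8% higher, 15.9% lower). Igf1 was at 0.28 times the level of batch 1, a log2 difference of -1.83 (SE 0.06, edgeR adjusted p = 3.76e-15). Gcg, the hormone gene that marks these cells, was higher in batch 2 by 2.80 on the log2 scale; its part in the differences of the members was not tested.

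The interaction of batch and treatment asks whether the change after Klf4 siRNA differed between batches. It passed the adjusted threshold for 0 of the 8 tested members and for 0% of all genes (edgeR). At an unadjusted p under 0.05 the counts were 0 of 8 members and 540 of 16333 genes. DESeq2 and limma-voom also called 0 genes, while edgeR called 13 without scramble replicate 3 and 17 with no filter on low counts, no member among them. Batch 2 gave this comparison 1 knockdown library.

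For the 2 members with the smallest adjusted p, the genes with the most similar pattern were listed, by Pearson's r of batch-centred log2 CPM over the 8 libraries among 9346 other genes with a mean of at least 10 CPM. For Akt1 these were Ttc7b (r = 0.998), Map1lc3b (0.997) and Syt9 (0.996). For Foxo1 they were Mybbp1a (0.996), Bub3 (0.994) and Fzd6 (0.993). The libraries share the treatment groups, so these are descriptions only.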

How the data were processed

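The authors deposited 1 table of raw counts, whole numbers for each gene in each of 8 libraries. The submitters' processing notes name FastQC, STAR, featureCounts, DESeq2 and the build mm10 without versions or settings, and the use of strand is not given in the sources used here. All 55536 gene identifiers matched GENCODE M21 (GRCm38), which gave positions and lengths.

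Genes were kept with filterByExpr (16333) and scaled with TMM. The fit was edgeR 4.0.16 in R 4.3.3, a robust quasi-likelihood model of batch and treatment with 5 residual degrees of freedom, after the design text's mention of edgeR with batch correction. P-values are two-sided and Benjamini-Hochberg adjusted over all tested genes, with 0.05 as the threshold. CPM use TMM-scaled library sizes, and changes within a batch are differences of mean log2 CPM (prior count 2). The interaction had its own fit. The test was checked on simulated counts. Those were drawn from a model with a batch term fitted to these data, so the check cannot show that the calls hold here.

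The members and lists were chosen with earlier results of these data known. Named were all members, Klf4, the ligands, Grb10, at most 12 other pathway genes and 6 FOXO targets past the threshold with the smallest adjusted p, and 3 similar genes for each of 2 members. A few listed genes are not reported here. Alternatives were no batch term, a replicate block, batch 1 alone, DESeq2 size factors, library size alone, DESeq2 1.42.0, limma 3.58.1 with voom, leaving the filter off, a filter at a mean of 5 CPM, omission of each library in turn and another gene length. The chi-square per degree of freedom between any 2 libraries (over genes with 20 counts or more) was at least 10.2, so none was a duplicate.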

Additional observations from a re-analysis of the deposited data

Results flagged for a closer look

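In 44 groups of 4 libraries (22 named genes, 2 treatments), the highest or lowest library was compared with its nearest neighbour, as a share of the range. For 2 groups the gap exceeded the value that chance passes in about 1 of 20 groups of like libraries. Each group of 4 mixes the batches, so that rate does not apply here and nothing about chance was concluded. Both flagged groups involved Klf4 siRNA replicate 3, the only knockdown library of batch 2. Akt2 had 249.9 CPM there, with the other 3 between 289.0 and 290.6 CPM (gap 0.962 of the range), and the batch 2 controls were also low, at 258.0 and 262.8 CPM. Igf1 had 10.5 CPM there, with the others between 40.8 and 43.2 CPM (gap 0.926), and the batch 2 controls had 11.05 and 10.7 CPM.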

How the results depend on the processing

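The treatment effects of 21 genes besides Klf4 were recomputed under 17 alternatives and the batch effects of the members under 14. Of 357 treatment values, 296 kept direction and side of the threshold, 49 lost the call, 5 gained it and 7 changed sign; of 112 batch values these were 94, 3, 8 and 7. Genes called after Klf4 siRNA numbered 1909, with 409 without the batch term, 1232 in batch 1 alone and 934 (without scramble replicate 1) to 2021 (without Klf4 siRNA replicate 4) with a library left out. Members called were 3, with 0 without the batch term and 2 to 5 with a library left out. Klf4 had a log2 change of -1.39 in batch 1 alone and -1.46 to -1.24 with a library left out. Signs changed where effects were near 0. After treatment, Akt2 had 0.0071 and Igf2r 0.028 without the batch term, and Igf2r ran from -0.025 to 0.011 with a library left out. Between batches, Insr had 0.0083 and Irs2 0.0087 with a filter at 5 CPM, and with a library left out -0.027 to 0.020 and -0.026 to 0.019. The cause was not tested.

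With the replicate number as a block, 1220 genes and 4 members passed, Akt2 had 0.0072 and Igf2r 0.029. Pik3r1 gained its call under this block, and M6pr (adjusted p = 0.076), Inppl1 (0.072), Foxo6 (0.399) and Igf1 (0.536) lost theirs. Same-numbered libraries correlated at 0.49, 0.42, 0.72 and -0.34. These values were centred by treatment and not by batch. The libraries numbered 4 come from different batches, while the other same-numbered libraries share a batch, so the correlations cannot decide on pairing. Since the labels do not say that a number marks a shared culture or day, the numbers were not taken to pair the libraries. The depth, at least 45954151 counts a library, leaves Igf1r, Igf2 and the insulin genes at or near the counting limit.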
